A study of Mus musculus with 11 samples.

Results

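The genes that encode the subunits of the oxidative phosphorylation complexes were examined across RNA-seq libraries of the mouse mammary epithelium. Members were chosen by symbol alone: genes beginning with *Ndufa*, *Ndufb*, *Ndufc*, *Ndufs* or *Ndufv* and a digit, *Sdha* to *Sdhd*, all *Uqcr* genes, the *Cox4* to *Cox8* subunits, all *Atp5* genes, and the protein-coding genes of mitochondrial DNA, without pseudogenes. The rule took 99 of the 27179 genes in the count tables, of which 86 are nuclear encoded and lie on 19 chromosomes and 13 are mitochondrially encoded. Complex I had 46 genes, complex II 4, complex III 9, complex IV 21 and complex V 19. *Ndufa4l2*, *Ndufb4b* and *Ndufb4c* were kept because their symbols begin as the rule states, and 5 pseudogenes (*Atp5c1-ps*, *Ndufs5-ps*, *Uqcrh-ps1*, *Ndufa11b* and *Ndufs6b*) were left out. *Ndufab1* and *Cyc1*, which also encode subunits, fall outside the letters of the rule.

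Samples of 5 kinds were sequenced, and the purpose of the RNA-seq was to judge how well cultured mammary cells serve a screen for genes that act in the mammary epithelium. MaSC/basal cells (CD24+CD29hi, enriched for mammary stem cells), luminal progenitor cells (LP, CD24+CD29loCD61+) and mature luminal cells (ML, CD24+CD29loCD61-) were sorted from virgin, wild-type female FVB/N mice of 8 weeks, with 3 libraries each. A single mammosphere library was made from MaSC/basal cells after 1 week of non-adherent mammosphere culture. A single library also came from Comma D beta (CommaD-βGeo), a mammary cell line established from a Balb/c mouse in mid-pregnancy. The labels do not say whether animals were pooled, so p-values measure the spread between these libraries. MaSC/basal replicate 1 carries p53 in its submitted name although it is labelled wild type, like all libraries. Libraries held 19958838 to 75795034 counted reads, were made in 3 batches named in the labels, and those of batch 1 (MaSC/basal 1, LP 1, ML 1 and mammosphere) used the first version of the library kit. The summed level of *Krt5*, *Krt14*, *Trp63* and *Acta2* was 12427 to 16392 CPM (reads scaled to the library size and its TMM factor) in MaSC/basal libraries and 46.3 to 312 in LP and ML libraries. The sum of *Esr1*, *Pgr*, *Prlr* and *Foxa1* was 3542 to 5948 CPM in ML and 642 to 1562 CPM in LP, and that of *Itgb3*, *Kit* and *Elf5* was 1092 to 1377 CPM in LP and 214 to 469 CPM in ML, so the labelled populations carried their defining markers. The basal sum was 3273 CPM in mammosphere and 1494 CPM in Comma D beta cells, and the sum of *Krt8*, *Krt18*, *Cdh1* and *Epcam* was 2833 CPM and 206 CPM.

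Oxidative phosphorylation takes place in the inner mitochondrial membrane. Complex I passes electrons from NADH to ubiquinone, complex II (succinate dehydrogenase) does so from succinate and is also an enzyme of the TCA cycle, complex III passes them on to cytochrome c, and complex IV (cytochrome c oxidase) reduces oxygen to water. The proton gradient that complexes I, III and IV build up drives complex V, the ATP synthase. All complexes but complex II mix subunits encoded in the nucleus with subunits encoded in mitochondrial DNA, and several subunits of complex IV exist as a common isoform and an isoform restricted to muscle, lung or testis.

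Of the 99 genes, 94 passed the filter on low counts (over 0.5 CPM in at least 3 libraries, which left 15422 genes of all). The other 5 were tissue isoforms or barely counted genes. *Uqcr11*, a small complex III subunit, had 0 to 2 reads in a library. *Cox6a2* and *Cox8b*, the striated muscle isoforms of their subunits, had 0 to 5 and 0 to 2 reads in the sorted cells and 19 and 12 reads in the mammosphere library. *Cox7b2* had no read in any library and *Cox8c* had 1 read in all libraries together. Reads of 12 nuclear and 7 mitochondrial members could be confused with a copy of at least 95% identity over at least 50% of the transcript, and how reads with several matches were counted is not given in the sources used here. *Ndufs5* shows this: it had 2 to 25 reads in the sorted libraries, while the pseudogene *Ndufs5-ps* had 385 to 2602. Whether counting used strand is not given either; *Ndufb6* and *Ndufa13* share 39.0% and 29.98% of their exon bases with a gene on the other strand, and *Atp5o* shares 54.2% with *Donson* on its own strand.

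Compared per length, the highest levels belonged to mitochondrially encoded genes, although not all of these exceeded the nuclear ones. In MaSC/basal cells the level of *CYTB*, the mitochondrial subunit of complex III, was 3522 CPM per kb and that of *ND1* of complex I was 3213 CPM per kb. Members with a near-identical copy were left out of the ranking of nuclear genes. The highest of the other nuclear genes in each complex reached 263 CPM per kb for *Ndufa4*, 89.1 for *Sdhc*, 218 for *Uqcrh*, 366 for *Cox4i1* and 653 for *Atp5b*, the catalytic beta subunit of ATP synthase. *Ndufa4* was first assigned to complex I and is now placed in complex IV, and it is counted here by its symbol. Among nuclear members without a near-identical copy, the median level in MaSC/basal cells was 54.5 CPM per kb for complex I (n = 34), 73.9 for complex II (n = 4), 97.8 for complex III (n = 6), 65.4 for complex IV (n = 13) and 114 for complex V (n = 12). The mitochondrial genes *ND3*, *ND4L*, *COX2*, *COX3* and *ATP6* were listed at 43.4 to 190 CPM per kb. For these, 97.6% to 99.9% of 100-base windows also occur in annotated transcripts of other genes, and unannotated sequence was not searched. *ND1*, *ND5*, *ND6* and *CYTB*, with no such window, were at 1114 to 3522 CPM per kb. *ND4*, with 60.8% of windows shared and a near-identical copy, was at 926 CPM per kb, and *ND2*, with 3.2% shared, at 1862 CPM per kb. *COX1* had 30.8% of windows shared, and its level per kb is not given here. *ATP8*, also with no such window, was at 55.2 CPM per kb. The part of read assignment in these levels was not tested.

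The nuclear members took the smallest share of counted reads in LP cells. Their share was 0.772%, 0.679% and 0.572% in the MaSC/basal libraries, 0.476%, 0.506% and 0.521% in the LP libraries and 0.788%, 0.740% and 0.713% in the ML libraries. All LP libraries lay below all MaSC/basal and all ML libraries, and MaSC/basal and ML overlapped. The means were 0.674% ± 0.1005, 0.501% ± 0.0232 and 0.747% ± 0.0380 (SD, n = 3 each), and two-sided exact permutation tests gave p = 0.1 for LP against each other population, the smallest value that 3 against 3 libraries allow, and p = 0.3 for MaSC/basal against ML. The mitochondrial members took 2.45% ± 0.535 of the reads in ML, 2.13% ± 0.477 in MaSC/basal and 1.73% ± 0.154 in LP (SD, n = 3), with exact permutation p = 0.2 for MaSC/basal against LP, 0.1 for LP against ML and 0.5 for MaSC/basal against ML. These shares are before TMM scaling. With TMM-scaled library sizes the mitochondrial share was 2.21% in LP 1, above 2.15% in ML 2 and 2.09% in ML 3, so LP and ML overlapped. The nuclear share on that scale was 0.551% to 0.573% in LP and at least 0.593% in the other sorted libraries. No test was run on the scaled shares. In bulk RNA a smaller share of a kind of cell and less RNA of these genes in each cell cannot be told apart.

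**Figure D1:**
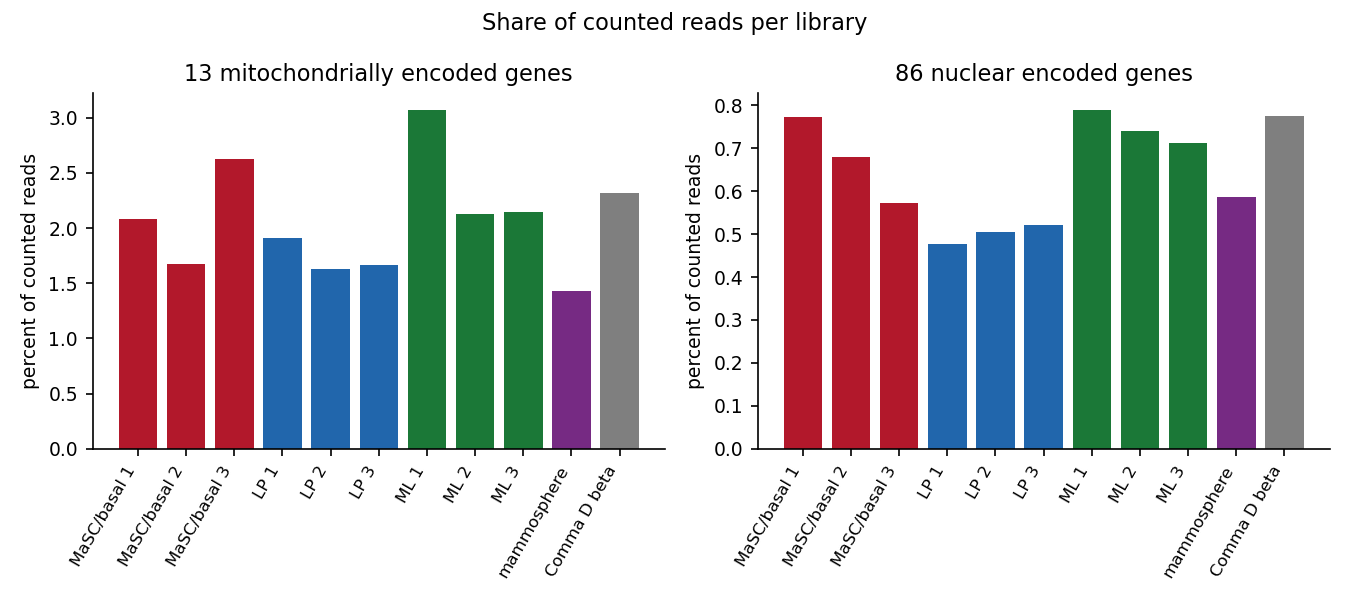
Percent of counted reads per library assigned to the 13 mitochondrially encoded members (left) and the 86 nuclear members (right), before TMM scaling; each bar is 1 library. The LP bars of the right panel lie between 0.476% and 0.521%, below every MaSC/basal and ML bar.

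LP and ML cells were compared first, as the populations in which the most members differed. Of 94 members tested, 39 were lower in LP than in ML and 1 was higher (edgeR quasi-likelihood test, Benjamini-Hochberg adjusted p under 0.05 over all 15422 genes). Among all genes tested, 17.5% were lower and 14.3% were higher in LP, against 41.5% and 1.06% of the members. The log2 fold change, LP minus ML, was below 0 for 91 of 94 members, with a median of -0.46 beside a median of -0.014 over all genes. By complex, 21 of 39 nuclear complex I genes, 1 of 4 complex II genes, 2 of 7 complex III genes, 9 of 14 complex IV genes and 6 of 17 complex V genes were lower in LP. None of the 13 mitochondrial genes passed the edgeR test (1 had an unadjusted p under 0.05, and limma voom and DESeq2 called 0), although all 13 had negative values with a median of -0.38 and standard errors (SE) of 0.21 to 0.63. With the library batch as a block *ND3* passed in edgeR (adjusted p = 0.042). The count of 39 rested on all libraries being present: it was 13 without LP 1, 15 without ML 1, 20 without LP 3, 24 without LP 2 and 24 without ML 3. The count over all genes moved as well, from 4899 to 3331, 3083, 4179, 3370 and 3360 in the same order. Within batches 1, 2 and 3 the median difference of the nuclear members was -0.71, -0.37 and -0.35 on the log2 scale.

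**Figure D2:**
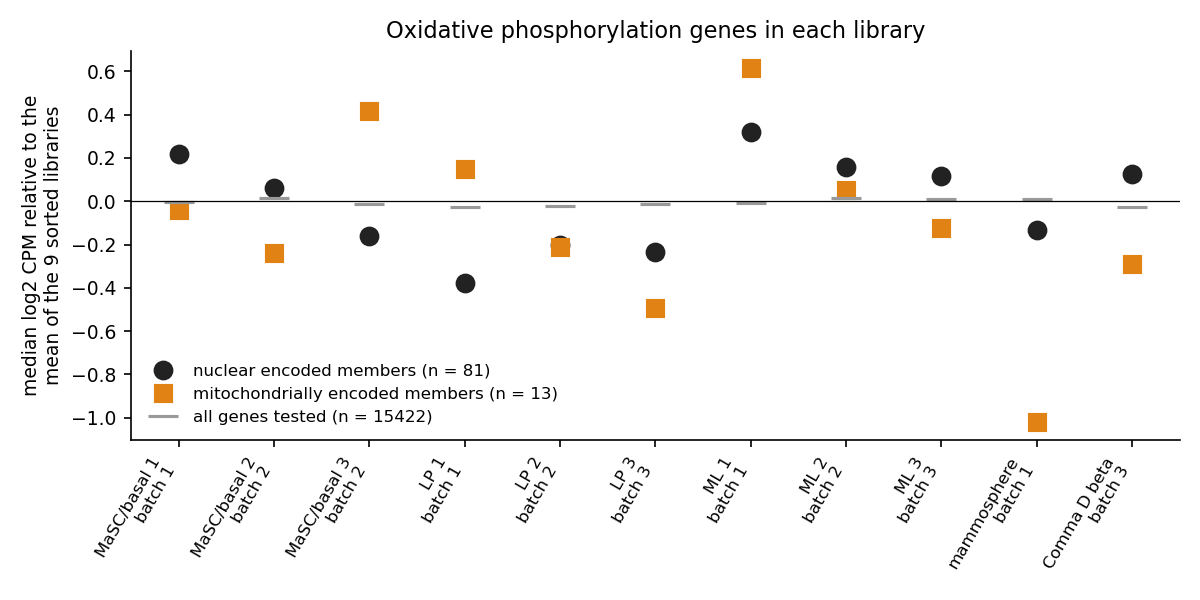
Median log2 CPM in each of the 11 libraries, relative to each gene's mean over the 9 sorted libraries, for nuclear members (n = 81), mitochondrial members (n = 13) and all genes tested (n = 15422); the batch stands under each library. Nuclear members lie between -0.38 and -0.20 in LP and between 0.12 and 0.32 in ML, while all genes stay within 0.03 of 0.

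Accessory subunits of complex I held the largest such differences. *Ndufa7* (chr17:33824572-33838316, GRCm38) was 34.4, 49.0 and 49.2 CPM in LP and 96.0, 88.9 and 95.5 CPM in ML. Every ML library was thus well above every LP library, and the log2 fold change was -1.08 ± 0.15 (SE, adjusted p = 0.0012, edgeR). *Ndufs4*, whose loss causes Leigh-like encephalopathy in mice, was 39.5, 51.4 and 53.6 CPM in LP and 79.8, 76.2 and 78.4 CPM in ML (log2 fold change -0.70 ± 0.14, adjusted p = 0.0049). *Ndufa1*, an X-linked subunit needed for assembly of the complex, was 14.4, 22.8 and 19.7 CPM in LP and 39.4, 31.99 and 33.5 CPM in ML (log2 fold change -0.88 ± 0.19, adjusted p = 0.0069). For both genes the LP and ML libraries did not overlap. *Ndufc1* was also lower in LP (-0.94, adjusted p = 0.012), but lost the call without LP 1 or ML 1. *Ndufs5* had the largest called value, -1.56, from 2, 10 and 2 reads in LP and 19, 25 and 7 reads in ML, and was lost without LP 1, LP 3 or ML 3. Among the nuclear core subunits, which carry the flavin and the iron-sulfur clusters, *Ndufs1*, *Ndufs8*, *Ndufv1* and *Ndufv2* were lower in LP with log2 fold changes of -0.63 to -0.42. *Ndufs3* (-0.41, adjusted p = 0.10) and *Ndufs7* (-0.53, adjusted p = 0.063, and 0.035 with the batch block) did not pass.

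In complexes II and III the members divided. *Sdhc*, a membrane anchor of succinate dehydrogenase, was lower in LP (53.6, 65.5 and 64.5 CPM) than in ML (97.7, 94.7 and 93.2 CPM), with a log2 fold change of -0.64 ± 0.13 (adjusted p = 0.0054). The iron-sulfur subunit *Sdhb* (-0.32), the flavoprotein *Sdha* (-0.20) and the anchor *Sdhd* (-0.68) did not pass. The small complex III subunits *Uqcr10* and *Uqcrq* were lower in LP, with log2 fold changes of -0.92 ± 0.16 and -0.78 ± 0.15 (adjusted p = 0.0030 and 0.00385). *Uqcrc1*, *Uqcrc2*, *Uqcrfs1*, *Uqcrh* and *Uqcrb* (the core proteins, the Rieske iron-sulfur protein and the remaining small subunits) had values of -0.39 to -0.12 and did not pass, although *Uqcrc1* did with the batch block (adjusted p = 0.038, edgeR).

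Complex IV held the one member that was higher in LP. *Cox4i2* (chr2:152753916-152765039), the isoform of subunit 4 known from lung and from low oxygen, was 1.16, 1.05 and 1.02 CPM in LP and 0.339, 0.439 and 0.182 CPM in ML, a log2 fold change of 1.65 ± 0.34 (adjusted p = 0.0059). It was also higher in MaSC/basal cells than in ML (1.495 ± 0.33, adjusted p = 0.0031). Its common counterpart *Cox4i1* was 323, 307 and 311 CPM in LP and 416, 383 and 363 CPM in ML (-0.31 ± 0.13, adjusted p = 0.096 by edgeR) and thus went the other way without passing. Per kb, *Cox4i2* made up 0.0469% to 0.107% of the pair in ML, 0.304% to 0.335% in LP and 0.284% to 0.439% in MaSC/basal. *Cox8a*, the common form of subunit 8, was 85.0, 103 and 109 CPM in LP and 173, 165 and 172 CPM in ML (log2 fold change -0.78 ± 0.12, adjusted p = 0.0020). *Cox6b1* (-0.60), *Cox5a* (-0.68), *Cox7a2* (-0.81), *Cox6a1* (-0.58), *Cox7b* (-0.53), *Cox5b* (-0.53) and *Cox6c* (-0.49) were lower in LP too. In complex V, the called genes were *Atp5e*, the epsilon subunit (-0.69, adjusted p = 0.0092), *Atp5h*, *Atp5j2*, *Atp5b*, *Atp5mpl* and *Atp5pb* (-0.52 to -0.34). Of the 40 calls, 14 were kept with each sorted library left out in turn: *Ndufa1*, *Ndufa7*, *Ndufa13*, *Ndufs1*, *Ndufs4*, *Ndufs8*, *Sdhc*, *Uqcr10*, *Uqcrq*, *Cox4i2*, *Cox6b1*, *Cox6b2*, *Cox8a* and *Atp5e*.

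**Figure D3:**
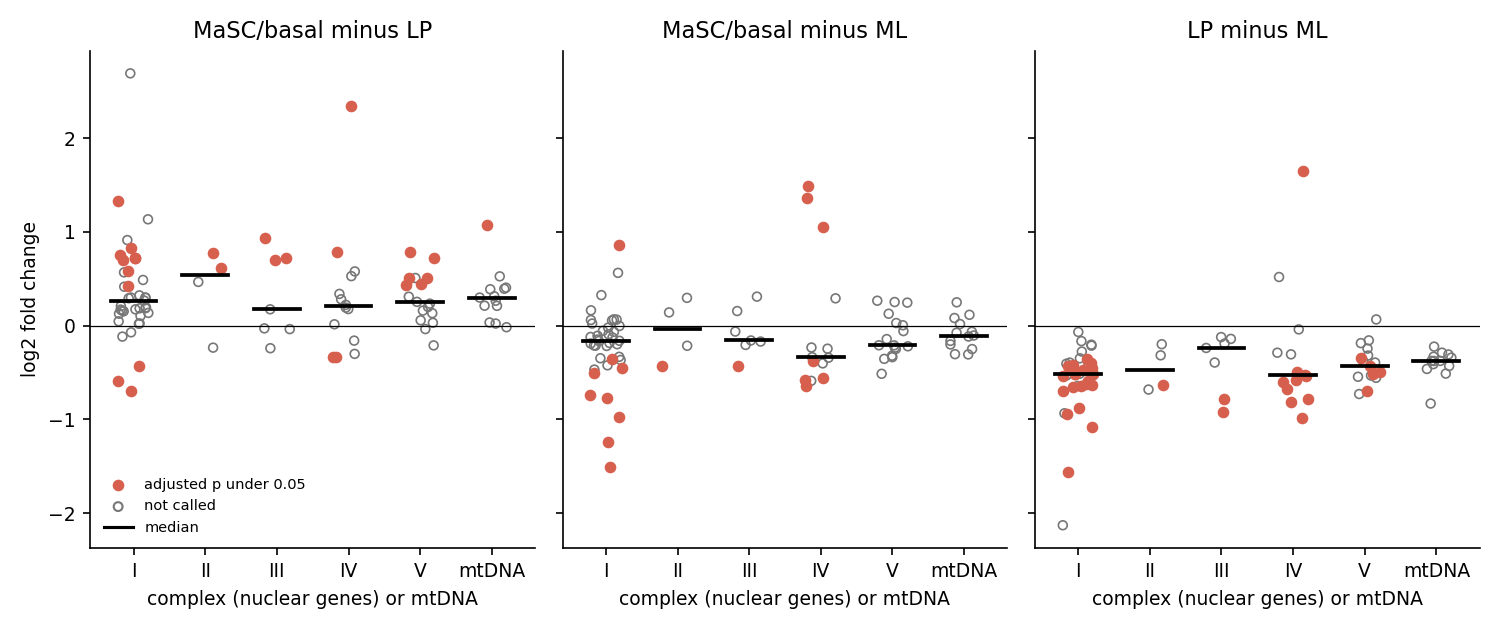
Log2 fold change of each of the 94 members tested in the pairwise comparisons of MaSC/basal, LP and ML, by complex for nuclear genes and for mitochondrial DNA; filled points had an adjusted p under 0.05 and bars are medians. In the right panel 91 of 94 points lie below 0, and *Cox4i2* is the filled point above it.

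MaSC/basal cells had more of these transcripts than LP for most of the members that differed. Of 94 members, 22 were higher in MaSC/basal (23.4%, against 29.4% of all genes tested) and 5 were lower (5.32%, against 28.0% of all genes). The median log2 fold change of the members was 0.27, and that of all genes was -0.0079. With no TMM scaling the members split into 36 higher and 0 lower, and the median of all genes rose to 0.14. The number higher was 14 without LP 1, and the number lower was 0 to 3 without any single sorted library. Calls over all genes, in both directions, fell from 8853 to 7815 without LP 1. The median difference of the nuclear members was 0.56 within batch 1 and 0.11 within batch 2, and batch 3 has no MaSC/basal library. By complex, the counts higher and lower were 8 and 3 of 39 in complex I, 2 and 0 of 4 in complex II, 3 and 0 of 7 in complex III, 2 and 2 of 14 in complex IV, 6 and 0 of 17 in complex V and 1 and 0 of the 13 mitochondrial genes.

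*Cox6b2* (chr7:4751792-4753094), known as the testis isoform of subunit 6b, had the largest called difference. Its level was 5.09, 5.24 and 5.45 CPM in the MaSC/basal libraries, 2.04, 1.97 and 2.14 CPM in those of ML and 0.988, 0.955 and 1.18 CPM in those of LP. The populations were fully separated in the order MaSC/basal, ML, LP, with log2 fold changes of 2.35 ± 0.22 for MaSC/basal minus LP (adjusted p = 1.2e-05), 1.36 ± 0.21 for MaSC/basal minus ML (adjusted p = 2.9e-04) and -0.99 ± 0.22 for LP minus ML (adjusted p = 0.0085). Per kb it remained a minor form: 4.00% to 4.91% of *Cox6b1* and *Cox6b2* together in MaSC/basal and 0.779% to 1.26% in the luminal libraries. *Ndufa11* (chr17:56717762-56724248), a membrane-arm subunit of complex I, was 69.4, 60.3 and 50.2 CPM in the MaSC/basal libraries, 36.2, 34.3 and 28.2 CPM in those of ML and 19.7, 26.6 and 25.5 CPM in those of LP. It was higher in MaSC/basal than in LP (1.33 ± 0.17, adjusted p = 1.1e-04) and than in ML (0.86 ± 0.17, adjusted p = 0.0015), with no overlap of libraries. The pseudogene *Ndufa11b* also had more reads in MaSC/basal (659 to 868) than in LP (101 to 353). None of the 100-base windows of *Ndufa11* occurred in an annotated transcript of another gene apart from its locus, and unannotated sequence was not searched. The part of read assignment in the *Ndufa11* levels was not tested.

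Further members that were higher in MaSC/basal than in LP came from every complex. *Uqcrq* was 57.8, 52.4 and 42.8 CPM in MaSC/basal against 23.7, 29.6 and 26.4 CPM in LP (log2 fold change 0.94 ± 0.15, adjusted p = 3.4e-04). *Sdhc* and *Sdhb* differed by 0.78 and 0.61, *Uqcrc1* and *Uqcr10* by 0.70 and 0.72, *Cox6c* by 0.79, *Ndufs1* by 0.70, *Ndufa1* by 0.82, *Atp5k* by 0.78 and *Atp5e* by 0.72. These genes kept the call with any single sorted library left out, as did *Ndufa5*, *Ndufs6*, *Ndufa11*, *Uqcrq* and *Cox6b2*, which makes 14 in all. *ND3*, the mitochondrial gene that passed (1.08 ± 0.35, adjusted p = 0.023), lost the call without MaSC/basal 2, MaSC/basal 3, LP 1 or LP 3. The 5 members lower in MaSC/basal were *Ndufa6*, *Ndufv3*, *Ndufa7*, *Cox4i1* and *Cox7a2l*, the last a factor of respiratory supercomplexes, with values of -0.69 to -0.34. Of these, *Ndufa6* and *Ndufa7* had overlapping libraries, and *Ndufa7* had an adjusted p of 0.059 with the library batch as a block.

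MaSC/basal and ML cells differed at fewer members. In this comparison 4 members were higher in MaSC/basal (4.26%, against 28.9% of all genes) and 14 were lower (14.9%, against 29.7% of all genes), and the median log2 fold change was -0.17 beside -0.0058 over all genes. That median was -0.089 without MaSC/basal 3, -0.086 without ML 1 and -0.25 without ML 3, and the number lower was 9 without ML 1. Calls over all genes, in both directions, fell from 9046 to 7900 without ML 1. The within-batch medians of the nuclear members were -0.12 in batch 1 and -0.21 in batch 2. The 4 higher genes were *Cox4i2*, *Cox6b2*, *Cox7a1* and *Ndufa11*. *Cox7a1* (chr7:30184171-30186030), the heart and muscle isoform of subunit 7a, was 7.79, 6.60 and 15.9 CPM in MaSC/basal and 5.46, 5.29 and 3.83 CPM in ML. MaSC/basal 3 stood apart at 15.9 CPM, and the call (1.05 ± 0.33, adjusted p = 0.021) was lost without that library, without ML 3, and with the batch as a block (adjusted p = 0.061). The summed level of *Pecam1*, *Cdh5*, *Kdr*, *Esam* and *Emcn*, markers of endothelial cells, was 93.4 CPM in the same library and 46.8 and 52.8 CPM in the other MaSC/basal libraries, and their part in the value was not tested.

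The 14 members lower in MaSC/basal than in ML were mostly of complexes I and IV. *Ndufa7* was 32.2, 35.4 and 30.8 CPM in MaSC/basal, 2.85-fold lower than in ML in the fit (log2 fold change -1.51 ± 0.15, adjusted p = 1.7e-05). *Ndufv3*, an accessory subunit beside the flavin site, was 48.0, 42.0 and 52.5 CPM in ML, 27.6, 29.0 and 34.5 CPM in LP and 19.7, 24.9 and 15.9 CPM in MaSC/basal. Its libraries formed the separate steps MaSC/basal, LP and ML, with -1.24 ± 0.18 for MaSC/basal minus ML (adjusted p = 2.0e-04) and -0.64 ± 0.18 for LP minus ML (adjusted p = 0.022). *Ndufa6* (-0.97), *Ndufs4* (-0.77), *Ndufa13* (-0.74), *Ndufb11* (-0.45), *Cox4i1* (-0.64), *Cox6b1* (-0.58) and *Cox8a* (-0.55) were lower as well, and these kept the call in each fit that left out a sorted library, as did *Ndufa7* and *Ndufv3*. *Sdha*, *Uqcrfs1*, *Cox7a2l*, *Ndufs7* and *Ndufb10* were called with values of -0.50 to -0.35 and lost the call in at least 1 such fit. No complex V gene of 17 passed the edgeR test in this comparison (1 had an unadjusted p under 0.05, and limma voom and DESeq2 called 1 each), and none of the 13 mitochondrial genes did (0 at an unadjusted p under 0.05 and 0 by either other tool).

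**Figure D4:**
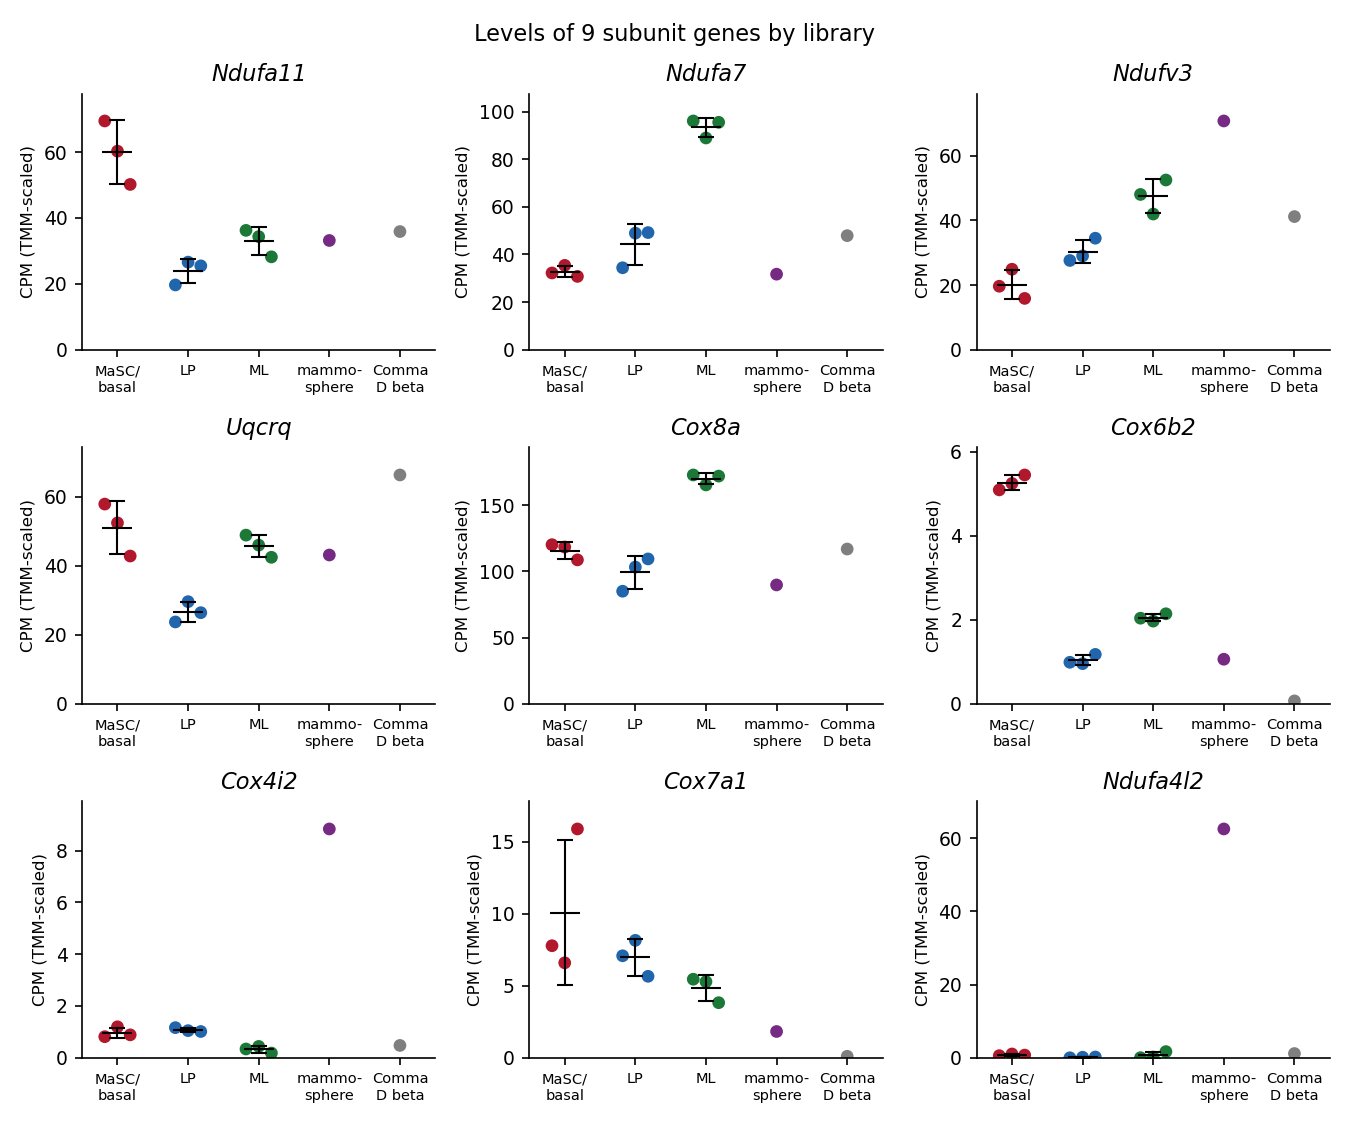
Level in TMM-scaled CPM of 9 member genes in each library, on axes that start at 0; each point is 1 library and each panel has its own scale. *Cox6b2* and *Ndufa11* are highest in MaSC/basal, *Ndufa7* and *Ndufv3* are highest in ML among sorted cells, and *Ndufa4l2* is at 62.6 CPM in mammosphere cells and at most 1.69 CPM in sorted cells.

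LP had the lowest mean of the sorted populations for 76 of the 94 members (80.9%), which was the case for 28.5% of all genes tested. ML had the highest mean for 61 members (64.9%, against 31.8% of all genes). Among the 13 mitochondrial genes LP was lowest for 12, and the highest mean was in MaSC/basal for 7 and in ML for 6. The library medians of the mitochondrial genes overlapped between all populations: relative to the sorted mean they were -0.04, -0.24 and 0.42 for the MaSC/basal libraries, 0.15, -0.21 and -0.50 for LP and 0.61, 0.05 and -0.12 for ML on the log2 scale. The libraries of batch 1 were the highest in LP and ML, and in MaSC/basal the highest was replicate 3, of batch 2. Within batches 1, 2 and 3, LP was below ML for 13, 13 and 12 of the 13 genes, with medians of -0.56, -0.22 and -0.29. MaSC/basal minus LP had a median of -0.13 in batch 1 and 0.28 in batch 2, and MaSC/basal minus ML had -0.64 and 0.03.

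The promoters of the nuclear members were examined because the members moved together. Promoters, 250 bases upstream and 50 downstream of a start, were taken from a RefSeq table on build GRCm38.p6, in which 69 of the 86 genes were found. Searched on both strands, GCGCA and GCGC set 1 base apart, the core bound by nuclear respiratory factor 1 (NRF-1), occurred in 17 of the 69 (24.6%) and in 5.19% of 27025 genes with a promoter. CCGGAAG, an ETS motif as bound by GABP (also named nuclear respiratory factor 2), occurred in 17 of 69 (24.6%) and in 9.93% of all, and AAGATGG, as bound by YY1, in 11 of 69 (15.9%) and in 7.28% of all. At least 1 of these motifs was present in 39 of 69 members (56.5%) and in 20.03% of all genes. Member promoters held a median of 19 CG dinucleotides and those of all genes 8, and the NRF-1 type and ETS motifs both contain CG. At least 1 motif was present in 15 of 32 members lower in LP than in ML (46.9%) and in 23 of 34 members tested and not called (67.6%). The 120 bases upstream of the start are shown for members chosen because this stretch held a motif and their levels were high. They are then shown for the isoform genes *Cox6b2* and *Cox7a1*, whose windows held none. *Atp5c1* and *Atp5j* have 2 promoters each, and the one with the most motifs in the stretch is shown. The same stretch of *Ndufa7* and *Cox8a*, both lower in LP than in ML, held no motif and is not shown. The full promoter of *Cox8a* held 2 ETS motifs that did not lie within these 120 bases, and *Ndufa7* had no motif in either window. Capitals mark the motifs, and CTTCCGG is the reverse complement of the ETS motif.
Cox6a1, chr5:115348959-115349078, minus strand: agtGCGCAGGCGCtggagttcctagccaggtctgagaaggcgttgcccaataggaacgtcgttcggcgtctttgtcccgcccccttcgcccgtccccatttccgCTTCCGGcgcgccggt
Atp5c1, chr2:10080433-10080552, minus strand: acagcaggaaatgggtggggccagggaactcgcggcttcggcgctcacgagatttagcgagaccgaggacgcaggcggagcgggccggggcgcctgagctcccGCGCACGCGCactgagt
Atp5e, chr2:174464102-174464221, minus strand: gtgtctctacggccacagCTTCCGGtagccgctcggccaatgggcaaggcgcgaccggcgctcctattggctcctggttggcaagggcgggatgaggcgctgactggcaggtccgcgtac
Uqcrh, chr4:116075071-116075190, minus strand: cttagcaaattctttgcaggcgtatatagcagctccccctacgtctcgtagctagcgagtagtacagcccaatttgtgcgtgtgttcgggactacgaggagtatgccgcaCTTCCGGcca
Atp5j, chr16:84834977-84835096, minus strand: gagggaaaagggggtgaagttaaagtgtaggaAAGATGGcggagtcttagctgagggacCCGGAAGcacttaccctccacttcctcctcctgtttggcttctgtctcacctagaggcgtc
Cox6b2, chr7:4753095-4753214, minus strand: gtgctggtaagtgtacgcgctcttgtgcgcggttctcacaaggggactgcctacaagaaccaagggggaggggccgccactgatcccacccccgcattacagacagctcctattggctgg
Cox7a1, chr7:30184051-30184170, plus strand: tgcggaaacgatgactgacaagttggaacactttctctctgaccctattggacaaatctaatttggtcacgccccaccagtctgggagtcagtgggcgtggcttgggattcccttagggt

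*Cox6a1* carries an NRF-1 type and an ETS motif, and *Atp5j*, which encodes coupling factor 6 of ATP synthase, carries a YY1 type and an ETS motif. *Cox6a1* and *Atp5e* were among the members lower in LP than in ML, while *Uqcrh* (-0.24, adjusted p = 0.12 by edgeR), *Atp5c1* (-0.32, adjusted p = 0.11) and *Atp5j* (-0.56, adjusted p = 0.054, and 0.039 with the batch block) were not.

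The mammosphere and Comma D beta libraries were compared with the MaSC/basal mean. Each is a single library, so no test was run, and a member was counted where it lay more than 2-fold from the mean on log2 CPM with a prior count of 2. Comma D beta was in batch 3, which has no MaSC/basal library, so batch and cell line cannot be told apart in its differences. Mammosphere was in batch 1 with MaSC/basal 1, while MaSC/basal 2 and 3 were in batch 2. In mammosphere cells 4 members were more than 2-fold higher (4.26%, against 19.7% of all genes) and 12 were more than 2-fold lower (12.8%, against 20.0% of all genes). The median difference of the members was -0.26 (-0.16 without MaSC/basal 1) and that of all genes was -0.0058. Without TMM scaling these medians were -0.04 and 0.22, and the counts were 5 higher and 7 lower. In Comma D beta 2 members were more than 2-fold higher (2.13%, against 16.9%) and 7 were lower (7.45%, against 24.8%), with a member median of 0.014 and 0.018 over all genes, or 0.30 and 0.31 without scaling, where 2 members were higher and 4 lower.

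Mitochondrially encoded transcripts were the members that were most uniformly lower in mammosphere cells. All 13 had negative differences, with a median of -1.08 (-0.85 without scaling), and 7 were more than 2-fold lower (4 without scaling). Below every MaSC/basal library lay 11, a count that was not made over all genes. *ND1* was at 1097 CPM beside a MaSC/basal mean of 3075 CPM, a difference of -1.47, and *CYTB*, *ND2* and *ND6* differed by -1.38, -1.39 and -1.20. *COX1*, at 6797 CPM, lay within the MaSC/basal range with a difference of -0.19, and *ATP8* (-0.34) did as well. The 81 nuclear members had a median of -0.15. The mitochondrial members' share of counted reads was 1.43% in mammosphere cells, below the 1.68% to 2.63% of the MaSC/basal libraries, and 2.32% in Comma D beta. In Comma D beta *ND4L*, *COX3* and *ATP8* were more than 2-fold lower (-1.38, -1.26 and -1.11; 1 of the 13 mitochondrial genes was without scaling), and *ND1* (-0.13) and *CYTB* (-0.0071) were near the mean.

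The nuclear members with the largest increases in mammosphere cells were *Ndufa4l2* and *Cox4i2*. *Ndufa4l2* (chr10:127509274-127517154), a paralog of *Ndufa4* known to be induced by low oxygen, had 2774 reads (62.6 CPM), and the MaSC/basal libraries had 34, 52 and 39 reads (0.577, 1.04 and 0.735 CPM). The ratio of CPM to the MaSC/basal mean was 79.9. Per kb, *Ndufa4l2* made up 32.4% of the pair with *Ndufa4* in mammosphere cells and at most 0.581% in any sorted library. *Cox4i2* was 8.84 CPM in mammosphere cells and 0.814, 1.20 and 0.886 CPM in MaSC/basal, a ratio of 9.16, and made up 3.45% of the pair with *Cox4i1*. *Ndufv3* (70.8 CPM, difference 1.83) and *Ndufa6* (33.2 CPM, 1.33) were the other genes above 2-fold, followed by *Ndufb4c* (1.31 CPM, 0.82). Lower by more than 2-fold were *Cox7a1* (1.83 CPM, -2.33), *Cox6b2* (1.06 CPM, -2.26), *Atp5g1* (3.65 CPM, -1.62), the flavin-binding core subunit *Ndufv1* (-1.08) and *Uqcrc1* (-1.06). The sum of 11 skeletal muscle markers was 201 CPM in this library and 5.58 to 19.4 CPM in the sorted libraries, with *Myog* at 12.4 CPM and *Acta1* at 34.7 CPM, and its part in the isoform levels, including the reads of *Cox6a2* and *Cox8b*, was not tested. The sum of 5 fibroblast markers was 2362 CPM in mammosphere cells, 3670 CPM in Comma D beta and 573 to 843 CPM in MaSC/basal. In LP and ML libraries it was 280 to 1337 CPM. Of the 5, *Dcn* went the other way, at 98.6 CPM in mammosphere cells, 91.5 CPM in Comma D beta and 162 to 204 CPM in MaSC/basal. *Col1a1*, *Col1a2*, *Col3a1* and *Pdgfra* were higher in both cultured libraries. The part of fibroblasts in these differences was not tested either.

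Comma D beta cells had hardly any reads of the isoform genes *Cox6b2* and *Cox7a1*. *Cox6b2* had 2 reads and *Cox7a1* 3 reads in this library, against 263 to 300 and 331 to 844 reads in the MaSC/basal libraries, and *Cox7a1* made up 3.23% of the pair with *Cox7a2* per kb where MaSC/basal libraries had 59.0% to 83.4%. *Atp5g1*, a gene of the proton-conducting c ring, was 1.26 CPM against 8.79, 13.9 and 12.0 CPM (difference -3.12), and *Ndufb4b* differed by -1.05. *Ndufs5* was 12.9 CPM (379 reads) and at most 0.537 CPM in any sorted library (difference 5.31). *Atp5g1* and *Ndufs5* have near-identical copies elsewhere in the genome. *Ndufv3* was 41.2 CPM (difference 1.05), and *Atp5j2*, *Ndufa4* and *Ndufv2* followed with 0.61, 0.58 and 0.58. Of the 94 members, 28 lay above and 28 below every MaSC/basal library. The same count was not made over all genes, so it is no result about the members. The median difference was 0.28 for nuclear complex I genes, 0.19 for complex II, -0.11 for complex III, 0.037 for complex IV and -0.0035 for complex V.

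**Figure D5:**
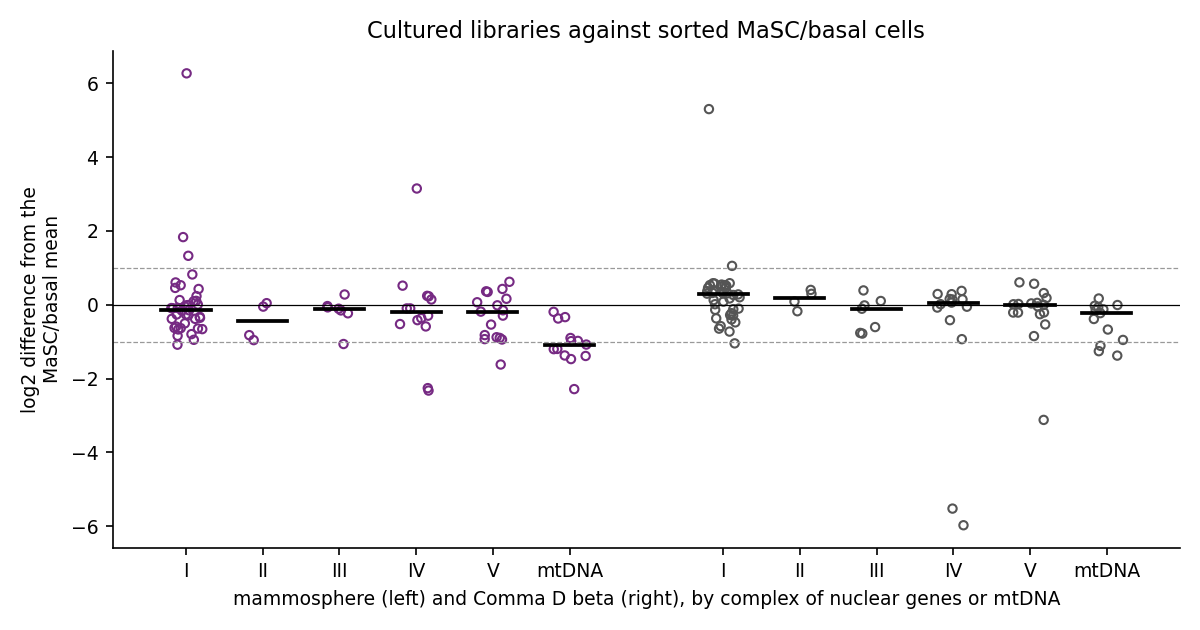
Log2 difference of each of the 94 members from the MaSC/basal mean in mammosphere cells (left) and Comma D beta cells (right), by complex for nuclear genes and for mitochondrial DNA; each point is 1 gene in 1 library. The 13 mitochondrial genes all lie below 0 in mammosphere cells, where *Ndufa4l2* is the highest point at 6.27.

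Other genes of the pathway were taken as lists, and their counts were read against all genes tested, of which 14.3% were higher and 17.5% lower in LP than in ML, 29.4% higher and 28.0% lower in MaSC/basal than in LP, and 28.9% higher and 29.7% lower in MaSC/basal than in ML. Of 77 mitochondrial ribosome genes tested, 19 (24.7%) were lower and 1 (1.30%) was higher in LP than in ML (median -0.34), 18 (23.4%) were higher and 7 (9.09%) lower in MaSC/basal than in LP (0.11), and 8 (10.4%) were higher and 18 (23.4%) lower in MaSC/basal than in ML (-0.13). *Mrpl18*, *Mrpl20* and *Mrpl34* were higher in MaSC/basal than in LP by 1.13, 1.04 and 1.03, and *Mrpl14* and *Mrpl40* were lower in MaSC/basal than in ML (-1.24 and -1.20). Of 17 TCA cycle enzymes, 6 were lower and 0 higher in LP than in ML (median -0.21), 6 were higher and 1 lower in MaSC/basal than in LP, and 2 and 2 differed between MaSC/basal and ML. Of 23 genes used as measures of mitochondrial mass, 2 were lower and 1 was higher in LP than in ML, 7 were higher and 0 lower in MaSC/basal than in LP, and 4 and 2 differed between MaSC/basal and ML. In that list *Slc25a4*, an ADP/ATP carrier of the inner membrane, was at a mean of 355 CPM in MaSC/basal, beside 111 CPM in ML and 89.9 CPM in LP (log2 fold changes 1.98 and 1.68, adjusted p = 3.8e-06 and 8.9e-06).

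Assembly factors were counted by complex, and in lists of this size shares near those of all genes are no result about the lists. For complex I, 3 of 18 were lower and 1 was higher in LP than in ML, 6 were higher and 1 lower in MaSC/basal than in LP, and 4 and 2 differed between MaSC/basal and ML. *Ndufaf3* was lower in LP than in ML (-1.15) and in MaSC/basal than in ML (-1.08), *Ndufaf4* was higher in MaSC/basal than in ML (1.19) and *Ndufaf5* was higher in MaSC/basal than in LP (1.00). For complexes II and III, 3 of 10 were lower in LP than in ML, 3 and 3 differed between MaSC/basal and LP, and 4 were lower in MaSC/basal than in ML, among them *Sdhaf1* (-1.73) and *Uqcc3* (-1.03). *Sdhaf4* was lower in LP than in ML (-1.34). For complex IV, 7 of 26 were lower in LP than in ML, 6 were higher and 5 lower in MaSC/basal than in LP, and 4 were higher and 11 lower in MaSC/basal than in ML. These included the copper chaperone *Cox17* (-1.33 for MaSC/basal minus ML and -1.01 for LP minus ML), *Coa5* (-1.07) and *Cmc1* (-1.02) for MaSC/basal minus ML, *Cox20* (-1.01) and *Higd1a* (1.33) for MaSC/basal minus LP. For complex V, 1 of 6 was higher in MaSC/basal than in LP, 1 was lower in MaSC/basal than in ML and 1 was lower in LP than in ML.

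Of 22 regulators of mitochondrial biogenesis tested, 5 (22.7%) were higher and 1 (4.55%) lower in LP than in ML, 3 and 3 (13.6% each) differed between MaSC/basal and LP, and 6 (27.3%) were higher and 5 (22.7%) lower in MaSC/basal than in ML. *Esrrg*, an estrogen-related receptor that acts on oxidative genes, had means of 27.2 CPM in ML, 19.6 CPM in LP and 1.08 CPM in MaSC/basal (-4.18 and -4.65 for MaSC/basal minus LP and ML, adjusted p = 7.9e-07 and 4.0e-07), and *Esrra* was also lower in MaSC/basal (-0.94 and -1.01). The coactivator gene *Ppargc1a* was higher in LP than in ML (4.40 and 2.11 CPM, log2 fold change 1.07, adjusted p = 0.022), and so were *Myc* (1.08), *Gabpa* (0.42), *Gabpb2* (0.34) and *Yy1* (0.34). *Twnk*, the mitochondrial DNA helicase, was lower in LP (24.0 CPM) and in MaSC/basal (28.0 CPM) than in ML (62.0 CPM). Higher in MaSC/basal than in ML were *Gabpa* (0.79), *Pprc1* (0.81), *Ppargc1b* (1.24), *Myc* (0.75), *Yy1* (0.39) and *Tfb2m* (0.42), and lower were *Polg2* (-1.16) and *Mterf1a* (-1.61). *Gabpa*, *Tfb2m* and *Polg* were higher (0.37, 0.54 and 0.38) and *Gabpb2* was lower (-0.31) in MaSC/basal than in LP. *Nrf1*, *Gabpb1*, *Tfam*, *Tfb1m*, *Polrmt*, *Mterf2*, *Ssbp1* and *Lonp1* did not pass in any of these comparisons. For *Tfam*, which packages mitochondrial DNA, the log2 fold changes were 0.11, 0.03 and -0.08 with an SE of 0.11 each, and the means were 27.4, 25.4 and 26.9 CPM.

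Outside the letters of the rule, the subunit gene *Cyc1* was lower in LP than in MaSC/basal and ML (80.7 against 110 and 116 CPM, log2 fold changes 0.44 and -0.52), while *Ndufab1* did not pass. In the list of 10 tested subunits and electron carriers to which they belong, 4 were lower and 0 higher in LP than in ML, 3 were higher and 2 lower in MaSC/basal than in LP, and 1 was higher and 3 lower in MaSC/basal than in ML. *Sqor*, which feeds electrons from sulfide to ubiquinone, had means of 53.1 CPM in ML, 23.9 CPM in LP and 5.16 CPM in MaSC/basal. *Aox1*, a cytosolic aldehyde oxidase that is no part of the chain, was lower in LP than in the other populations (1.29 for MaSC/basal minus LP and -1.49 for LP minus ML). Of 6 uncoupling proteins and related carriers, 2 were higher and 1 lower in LP than in ML, 2 were higher and 0 lower in MaSC/basal than in LP, and 3 were higher and 1 lower in MaSC/basal than in ML. *Ucp1*, the uncoupling protein of brown fat, ranged from 1.32 to 2.71 CPM in MaSC/basal, from 0.0456 to 0.255 CPM in ML and from 0.168 to 0.267 CPM in LP, and the fat marker *Adipoq* was 0.170 to 0.577 CPM in MaSC/basal and at most 0.0936 CPM in the luminal libraries. *Lep*, another fat marker, was 1.23 to 4.27 CPM in MaSC/basal and at most 0.107 CPM in the luminal libraries. The 7 white adipocyte markers summed to 30.6 to 70.3 CPM in MaSC/basal, 4.69 to 16.8 CPM in LP and 3.51 to 36.4 CPM in ML. In the MaSC/basal sums *Fabp4* alone was 25.6 to 67.2 CPM. The sum of 4 brown adipocyte markers, *Ucp1* among them, went the other way between MaSC/basal and LP. It was 10.2 to 12.3 CPM in MaSC/basal, 15.5 to 20.0 CPM in LP and 6.06 to 8.94 CPM in ML. *Cidea* was 0.305 to 0.379 CPM in MaSC/basal and 8.28 to 11.6 CPM in LP. *Ppargc1a* overlapped, at 2.12 to 3.88 CPM in MaSC/basal and 3.80 to 4.97 CPM in LP. *Dio2*, like *Ucp1*, was higher in MaSC/basal, at 6.26 to 6.71 CPM against 1.52 to 4.38 CPM in LP. The part of fat cells in the *Ucp1* level was not tested. *Ucp3* was higher in LP than in ML (2.74) and *Slc25a30* was lower (-1.16).

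The genes outside the members whose log2 CPM over the 9 sorted libraries was most like the mean of the members were *Psmb5*, *Get3*, *Cyc1*, *Ube2m* and *Pkm*, with Pearson correlations of 0.983, 0.978, 0.976, 0.976 and 0.975. Over all 15328 other genes the median correlation was 0.047 and the 95th percentile was 0.752. The 9 points share batches and populations, and the correlations are a description. The members themselves were compared with the mean of the nuclear members alone. *Cox4i2* (-0.62), *Cox7a1* (-0.37) and *Cox7a2l* (-0.089) were correlated least with that mean.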

How the data were processed

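RNA-seq counts of 11 libraries were used. Per the labels and the study's methods, the authors mapped single-end 100-base reads to the mm10 (GRCm38) genome by Rsubread and summarised them per Entrez gene by featureCounts. The deposited tables, one per library, hold these raw counts and the exon length of each gene in bases; the submitters' processing notes also name CASAVA 1.8.0, edgeR 3.6.2 and limma 3.20.5. Symbols came from RefSeq (25275 genes). Members and lists were chosen with earlier results of these data known.

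Genes over 0.5 CPM in at least 3 libraries were kept, which is 9.36 reads in the shallowest library. edgeR 4.0.16 (R 4.3.3) gave TMM factors (0.863 to 0.939 in LP and 0.964 to 1.21 in the rest) and quasi-likelihood tests with a mean for each of 5 sample types, and SE is the log2 fold change over the square root of F. Log2 CPM used a prior count of 2. The script was tested on simulated data, in which many changes of 2-fold did not pass, so a gene that did not pass here may still differ. DESeq2 1.42.0 was an alternative. The deviations of LP and ML libraries of 1 batch correlated at 0.31 to 0.53 and those of MaSC/basal with the others at -0.12 to 0.29, and batch numbers from the labels gave the replicate block.

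Genes were named by rule: mitochondrial genes, core subunits, isoform pairs, *Sdh* and *Uqcr* genes, up to 5 called members without overlap per direction and comparison, up to 5 per direction in each cultured library, members below the filter, regulators, and other list genes called with a log2 fold change over 1. Further called members are given as values.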

Additional observations from a re-analysis of the deposited data

How the results depend on the processing

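Alternatives were run 1 at a time against counts of members of 22 higher and 5 lower in MaSC/basal than in LP, 4 and 14 in MaSC/basal against ML, and 1 and 39 in LP against ML. Without TMM scaling MaSC/basal against LP gave 36 higher and 0 lower, and the median differences from MaSC/basal became -0.038 for mammosphere and 0.30 for Comma D beta. In LP against ML the share of calls over all genes that were higher in LP fell from 45.0% to 29.4% without scaling, and 58 members were lower. At an adjusted p under 0.01 the counts were 14 higher and 0 lower in MaSC/basal than in LP, 8 lower in MaSC/basal than in ML and 13 lower in LP than in ML. Counts over all genes at that cutoff were not taken. Members lower in MaSC/basal than in LP numbered 3 without the filter on low counts and 3 with the 9 sorted libraries alone. The LP shares with TMM-scaled library sizes were 1.94% for mitochondrial and 0.560% for nuclear members. With each sorted library left out in turn, 14 to 26 members were higher and 0 to 3 lower in MaSC/basal than in LP, 9 to 18 were lower in MaSC/basal than in ML and 13 to 42 were lower in LP than in ML, in fits with fewer samples. In the small count of 5 every such fit took the count to 3 or fewer, and the cause of the other changes was not tested.

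With the batch as a replicate block, which pairs libraries, the counts were 24 and 4, 4 and 16, and 1 and 44. It ended the calls of *Ndufa7* (MaSC/basal against LP), *Ndufs7* and *Cox7a1* (MaSC/basal against ML) and *Ndufa2* (LP against ML), and made calls of *Ndufa4l2* and *Cox7a2* (MaSC/basal against LP), *Ndufa4l2*, *Cox6a1*, *Cox7c* and *Atp5d* (MaSC/basal against ML), and *ND3*, *Ndufb3*, *Ndufs7*, *Uqcrc1*, *Atp5d* and *Atp5j* (LP against ML). Alternatives chosen after seeing the data left out members with a near-identical copy (19 and 5, 4 and 13, 1 and 35), mitochondrial members, or the genes with a copy suffix, and each count stayed within 1.5 times.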
